A study of Mus musculus with 4 samples.

Results

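Expression of 10 genes of the bone morphogenetic protein (BMP) pathway was followed in single cells of fetal mouse gonads: the ligands Bmp2, Bmp4 and Bmp5, and the 7 genes Id1, Id2, Id3, Msx1, Msx2, Gata2 and Zglp1, which are known or proposed targets of BMP signalling. The 10 genes were taken from a list fixed by name, out of 19321 genes in the table. The list was chosen with earlier results of these data known. Ligands were read in the somatic classes of the gonad and targets in the germ cells, beside Stra8, the gene that marks entry into meiosis. The cells came from gonads of XX embryos of the strain C57BL/6, with no mutant allele and no treatment named in the labels. They cover 4 days of embryonic development before and during meiotic entry: E11.5 and E12.5, then E13.5 and, as the last, E14.5. They were profiled as droplet 3′ libraries (10x Chromium, version 2 chemistry), 1 library per stage. The labels do not say how many embryos were pooled in a library, so stage, library and litter cannot be told apart. With 1 library per stage no test was possible and no p-value is given: 95% intervals, in parentheses, cover counting error only.

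BMP ligands are secreted dimers that bind type I and type II receptor kinases, which phosphorylate SMAD1, SMAD5 and SMAD9. These join SMAD4, move into the nucleus and switch on targets, of which the Id genes are the best known. In the fetal ovary BMP signals from somatic cells are known to act on germ cells together with retinoic acid, and Zglp1, a GATA-type zinc finger gene, is known to act downstream of BMP in the oogenic programme.

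The design text gives about 20000 cells, and the table held 19387 barcodes, of which 19001 were kept after filters on mitochondrial UMIs and doublets. A UMI (unique molecular identifier) stands for 1 captured RNA molecule. The libraries held between 69458291 and 80377418 UMIs, and any pair of libraries shared between 19 and 36 barcodes. Supporting cells (at least 3 of Fst, Wnt4, Wnt6, Irx3 and Runx1 detected) numbered 2111, 2113, 1713 and 653 in stage order. Interstitial cells (Col1a1 with Tcf21) numbered 297, 208, 594 and 201, and cells of the surface epithelium (Upk3b with Krt19 or Krt7) 592, 560, 388 and 342. Germ cells (at least 3 of Dazl, Ddx4, Dnd1, Mael, Dppa5a and Mov10l1) numbered 223, 594, 713 and 2264. Cells that met more than 1 of the rules (1594) were left out. They made up 4.22%, 7.54%, 9.72% and 12.2% of kept cells in stage order. At E11.5, 2225 cells met the supporting rule and 747 the epithelium rule, and at E14.5 1130 and 729 did. A larger part of both classes was thus left out at E14.5 than at E11.5.

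Markers that the rules did not use were read in each class. Kitl, which encodes KIT ligand, lay between 240 and 422 UMIs per 1000000 UMIs of the class (CPM) in supporting cells and between 17.8 and 30.6 CPM in interstitial cells. Pdgfra lay between 72.3 and 106 CPM in interstitial cells and Lrrn4 between 39.6 and 48.7 CPM in the epithelium. Dppa3 lay between 486 and 842 CPM in germ cells. Foxl2, a defining gene of pregranulosa cells, was near 0 in supporting cells (0.130 to 0.345 CPM), and Msln, a mesothelial marker, was between 0 and 2.16 CPM in the epithelium. The names supporting and epithelium therefore rest on the rules given above. Each level below is the sum of a gene's UMIs over the cells of a class in a library, in CPM.

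The sequence just upstream of an annotated start is where a promoter would be read. Windows of 250 bases before a start were found for 8 of the 10 members in RefSeq (build GRCm38.p6, the assembly also called mm10), with 2 starts for Gata2. Other gene models begin further upstream: in the GENCODE M21 annotation the windows of Id3, Msx2 and the second start of Gata2 lie over their full 250 bases in an exon of the gene itself, and that of Id2 over 161 bases. The Zglp1 window lies in an exon of Gm49373, and the windows of Msx1 and Bmp4 overlap no exon. The hexamers GGCGCC and GGAGCC, which resemble sites described for BMP-responsive SMADs, were searched on both strands. GGCGCC was present in 9.59% and GGAGCC in 26.0% of 32851 windows of this length. For each target window with a match, the 30-base stretch that holds the most matches is printed 5′ to 3′ on the strand of the gene, with the match in capitals (GGCTCC is GGAGCC on the other strand). They are shown so that the matches can be read beside the levels of these targets. Either hexamer was present in 31.7% of the 32851 windows, so a match is common. Longer motifs, namely a palindrome and each hexamer joined by a spacer to a second short motif, were also searched. None was found in any member's window, and they lay in between 0.0700% and 0.167% of the 32851 windows. Whether the matches take part in a response to BMP was not tested. A GGAGCC match 88 bases before the start of Id2 and another 175 bases before that of Zglp1 fall outside the printed stretches.
Zglp1, chr9:21067175-21067204, minus strand: cgcccGGCTCCgcccaggtGGCGCCcatcg
Id2, chr12:25096306-25096335, minus strand: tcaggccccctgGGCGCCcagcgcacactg
Id3, chr4:136143623-136143652, plus strand: cctcgcatccgaGGCTCCgctgtcctcggc
Msx2, chr13:53472786-53472815, minus strand: tgGGCTCCcagcgcgcccctgccGGCTCCc
Gata2, second start, chr6:88198614-88198643, plus strand: cgctgattggctGGCGCCggcttcataggc

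The whole window of Msx1, the target with the largest change in germ cells, is shown because neither hexamer lies in its 250 bases, of which 68% are G or C. This says only that these letters are absent from this window.
Msx1, chr5:37824586-37824835, minus strand: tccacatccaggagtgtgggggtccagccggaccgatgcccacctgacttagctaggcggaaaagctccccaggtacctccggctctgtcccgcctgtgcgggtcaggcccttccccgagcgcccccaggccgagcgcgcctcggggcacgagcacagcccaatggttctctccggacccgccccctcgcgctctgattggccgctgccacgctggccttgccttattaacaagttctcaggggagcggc

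Bmp2 had the highest level of the 3 ligands in supporting cells and in the epithelium at every stage. The gene (chr2:133552159-133562896) encodes a ligand known from the ovary, heart and bone. In supporting cells Bmp2 stood at 59.7 CPM (57.0 to 62.5), 88.7 CPM (85.2 to 92.3), 66.1 CPM (62.6 to 69.7) and 85.4 CPM (78.9 to 92.2) in stage order. The E12.5 and E14.5 intervals overlapped and lay above those of the other stages, so the level went up, down and up again with no single direction. In interstitial cells Bmp2 was 10.2, 7.97, 4.78 and 0.891 CPM in stage order. The last of these rests on 2 UMIs.

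Bmp2 in the epithelium climbed with stage. It was 26.6 CPM (23.4 to 30.04), 37.8 CPM (33.7 to 42.3), 53.9 CPM (47.5 to 60.8) and 61.5 CPM (53.8 to 70.0) in stage order, and the last 2 intervals overlapped. The E14.5 level was 2.31 times that at E11.5 (log2 ratio 1.21, 0.95 to 1.47). A gene is said to pass the 2-fold rule when the ratio of its levels is at least 2, the interval of the log2 ratio leaves out 0 and the levels rest on at least 50 UMIs together. Bmp2 passed, as did 6.25% of all genes in the same direction. The summed level of the 5 supporting markers moved the same way in these cells, from 79.7 and 96.6 CPM to 200 and 379 CPM, and Kitl from 38.7 to 145 CPM. Their part in the result was not tested. Cells that met both the supporting and the epithelium rule, and were left out of both classes, carried Bmp2 at 49.4, 57.3, 63.1 and 96.3 CPM.

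The share of supporting cells with a Bmp2 UMI, after every cell was thinned to 5000 UMIs, was 20.1% (18.4 to 21.9), 29.2% (27.3 to 31.2), 22.1% (20.1 to 24.1) and 30.2% (26.7 to 33.8) in stage order. It followed the same up and down course as the level. Without thinning the shares were 39.9%, 48.3%, 37.1% and 46.6%, with a median depth that fell from 13819 to 9529 UMIs per cell. In thinned germ cells, at the same depth, the share was between 0% (0 of 223 cells, which allows up to 1.35%) and 1.99%. In thinned interstitial cells it was 3.70% at the start and 0% at the end (0 of 201 cells, which allows up to 1.49%). Endothelial cells (151, 181, 91 and 38 cells) also carried Bmp2, at 26.1, 44.4, 31.7 and 32.5 CPM. Immune cells held it at 90.2 CPM at E12.5, from 20 UMIs in 13 cells, and between 2.83 and 19.6 CPM at the other stages.

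Set against the interstitial cells of the same library, Bmp2 was higher in supporting cells at all 4 stages. In stage order the log2 ratio was 2.55 (2.09 to 3.04), 3.48 (2.90 to 4.12), 3.79 (3.25 to 4.38) and 6.58 (4.72 to 9.63). It passed the 2-fold rule at each stage, as did 14.4%, 15.4%, 16.5% and 14.7% of all genes in that direction. The E14.5 ratio changed with the class rules, to 2.65 with cells of more than 1 class kept and to 3.59 with the rules read on thinned cells, and stayed positive under each alternative run. The ratio of supporting cells to epithelium was smaller, with log2 values of 1.17 (0.98 to 1.36), 1.23, 0.30 and 0.47 (0.25 to 0.70) in stage order.

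**Figure D1:**
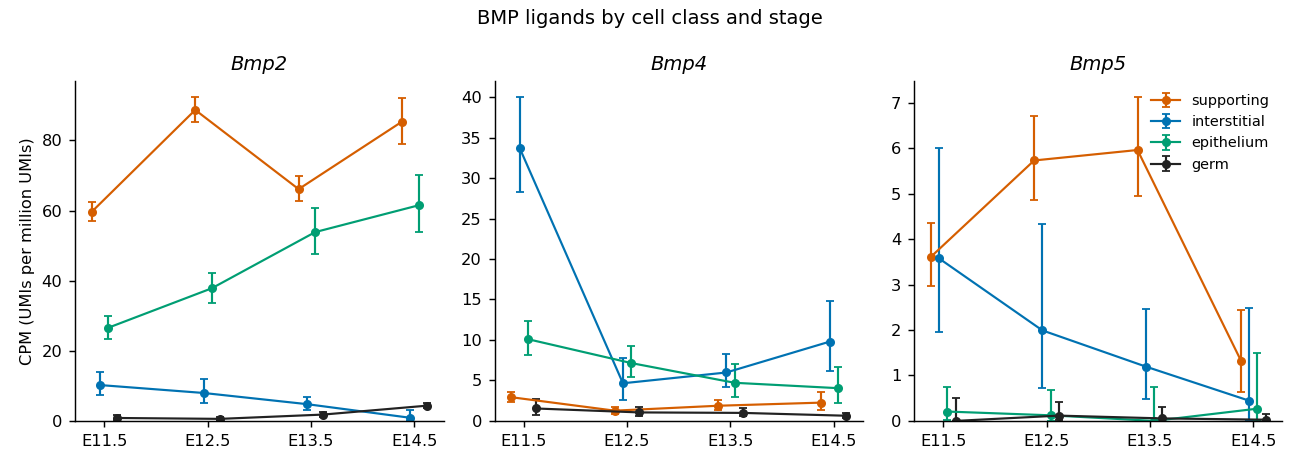
Level of Bmp2, Bmp4 and Bmp5 (CPM, linear axes that differ between panels) by stage in supporting, interstitial, epithelium and germ cells; points are sums over the cells of 1 library and bars are exact Poisson 95% intervals. Of these classes supporting cells have the highest Bmp2 at every stage; Bmp4 is highest in interstitial cells at E11.5 (33.7 CPM) and Bmp5 in supporting cells at E12.5 and E13.5.

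Bmp4 was lower in supporting than in interstitial cells, the reverse of Bmp2. The gene (chr14:46383525-46390669) encodes a ligand known for its part in specifying germ cells earlier in development. In interstitial cells it was 33.7 CPM (28.2 to 40.0) at E11.5, 4.65 CPM (2.54 to 7.80) at E12.5, 5.98 CPM (4.17 to 8.32) at E13.5 and 9.80 CPM (6.14 to 14.8) at E14.5. The E11.5 level lay above all the others, and the 3 later intervals overlapped. From E11.5 to E12.5 Bmp4 fell by 2.86 on the log2 scale (interval -3.77 to -2.06) and passed the 2-fold rule, as did 2.59% of genes in that direction. Its E12.5 level rests on 14 UMIs in 208 cells. Dcn, a stromal marker that the rule did not use, was 155 CPM at E11.5 and 49.2 CPM at E12.5 in the same cells, while Pdgfra (72.3 and 73.4 CPM) and Nr2f2 (361 and 358 CPM) were level; the part of the cell mixture in the fall of Bmp4 was not tested.

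The other classes held less Bmp4 at E11.5, but at E12.5 the interstitial level was no longer the highest: the epithelium stood at 7.15 CPM (5.43 to 9.24) and the intervals overlapped. In the epithelium it went from 10.1 CPM (8.20 to 12.3) at E11.5 over 7.15 and 4.71 CPM to 4.05 CPM (2.26 to 6.67) at E14.5, a log2 change of -1.32 that passed the 2-fold rule with 2.72% of genes. In endothelial cells it was 16.6 CPM at E11.5 and 4.69 CPM at E12.5. At E13.5 it rested on 6 UMIs. At E14.5 it was 0 UMIs in the 38 endothelial cells, where 3 UMIs would give 5.73 CPM, above the E12.5 level. A fall after E12.5 can therefore not be read there. In supporting cells it was 2.93, 1.27, 1.87 and 2.26 CPM. The step from E11.5 to E12.5 there passed the 2-fold rule downward, as did 3.42% of genes.

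The log2 ratio of Bmp4 in supporting against interstitial cells was -3.53 (-3.93 to -3.13), -1.88 (-2.81 to -0.86), -1.67 (-2.38 to -0.97) and -2.12 (-3.12 to -1.14) in stage order. It was negative at each stage, with intervals that left out 0. The levels rested on at least 50 UMIs at E11.5 and E13.5 only, and at those stages Bmp4 passed the 2-fold rule. Of all genes, 12.3%, 10.1%, 10.2% and 8.64% did so in that direction. An antisense gene, Gm15222, overlaps Bmp4 and has its own row in the table. How the counting treated strand is not given in the sources used here, so reads of the pair may not be fully told apart.

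Bmp5 was scarce, and most of its UMIs lay in supporting cells. The gene (chr9:75775365-75900316) encodes a ligand of the same family as Bmp7. In supporting cells it was 3.61 CPM (2.97 to 4.35), 5.73 CPM (4.86 to 6.72), 5.96 CPM (4.95 to 7.13) and 1.33 CPM (0.638 to 2.45) in stage order. The E14.5 level, 10 UMIs in 653 cells, lay below the others. Against E11.5 it was lower by a log2 value of -1.44 (-2.54 to -0.51), which passed the 2-fold rule with 4.85% of genes. Interstitial cells held 14, 6, 7 and 1 Bmp5 UMIs, and the epithelium 2, 1, 0 and 1. Of all Bmp5 UMIs in kept cells, supporting cells held 75.0%, 79.8%, 75.6% and 52.6%. These cells made up 43.9%, 44.6%, 36.0% and 13.9% of kept cells, so class size enters these shares.

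The log2 ratio of Bmp5 in supporting against interstitial cells was 0.01 (-0.79 to 0.93), 1.52 (0.37 to 2.99), 2.32 (1.23 to 3.66) and 1.58 (-1.24 to 7.02) in stage order. A difference was not detectable at this depth at E11.5 and E14.5. At E12.5 and E13.5 Bmp5 passed the 2-fold rule, as did 15.4% and 16.5% of all genes in that direction. An antisense gene, Gm26903, overlaps Bmp5 and is counted on its own row, with the same limit as for Bmp4.

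The germ cells held little of the 3 ligands. Bmp4 lay between 0.639 and 1.53 CPM there and Bmp5 between 0 and 0.117 CPM. Bmp2 was 0.837 CPM (0.307 to 1.82) at E11.5, 0.583 CPM at E12.5, 1.81 CPM at E13.5 and 4.34 CPM (3.70 to 5.06) at E14.5, the last from 163 UMIs in 2264 cells. Its log2 ratio of E14.5 over E11.5 was 2.38 (1.22 to 3.84). The 5 supporting markers summed to between 19.6 and 25.4 CPM in the same cells, and erythroid cells of the E14.5 library, which should lack the gene, held Bmp2 at 0.790 CPM. The part of stray RNA in this value was not tested.

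In germ cells 4 of the 7 targets passed the 2-fold rule upward from E11.5 to E14.5, namely Msx1, Zglp1, Id1 and Gata2. No target passed it downward, and Id2 rose by less than 2-fold. All 7 rested on enough UMIs. The same rule was passed upward by 30.1% and downward by 8.85% of all genes in these cells, so the share of targets, 4 of 7, is read against a large general change. The median log2 ratio was 1.35 over the 7 targets and 0.42 over all genes. Scaling by the median of gene ratios in place of CPM lowered every log2 ratio by 0.34 and left the same count of 4, while the share of higher calls among all calls went from 77.3% to 61.0%.

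Zglp1 was high in germ cells and close to 0 in the somatic classes. The gene (chr9:21062393-21067093) encodes a GATA-like zinc finger protein. It stood at 26.5 CPM (22.9 to 30.5) at E11.5, 65.1 CPM (61.3 to 69.0) at E12.5, 97.2 CPM (92.7 to 102) at E13.5 and 91.3 CPM (88.3 to 94.4) at E14.5 in germ cells. The rise came before E13.5, and the last 2 intervals overlapped. Zglp1 was the only target to pass the 2-fold rule from E11.5 to E12.5 (log2 ratio 1.30, 1.07 to 1.53), a step passed upward by 3.63% of genes. In supporting, interstitial and epithelium cells it lay between 0.130 and 2.43 CPM, with the highest value of each class at E13.5 or E14.5.

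Of the thinned germ cells, those with a Zglp1 UMI made up 10.3% (6.65 to 15.1), 28.6% (25.01 to 32.4), 40.8% (37.2 to 44.5) and 34.1% (32.2 to 36.1). In thinned supporting cells this share was between 0.0474% and 0.613%. Without thinning the germ cell shares were 51.6%, 73.6%, 84.6% and 69.5%. Median depth of germ cells fell from 31081 UMIs at E11.5 to 15343 at E14.5. A second gene model, Gm49373, overlaps Zglp1 on the same strand and was not among the rows analysed here, so some reads of the locus may have been set aside as ambiguous.

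Gata2 had a similar course in germ cells. The gene (chr6:88193891-88207032) encodes a zinc finger factor known from blood and endothelial cells. Its germ cell level was 23.6 CPM (20.1 to 27.4), 35.0 CPM (32.2 to 37.9), 64.7 CPM (61.1 to 68.5) and 59.9 CPM (57.4 to 62.4) in stage order. The log2 ratio of E14.5 over E11.5 was 1.35 (1.12 to 1.58) and 1.01 on the median-of-ratios scale, just inside the rule. Endothelial cells held Gata2 at 24.2, 16.9, 22.9 and 22.9 CPM. Immune cells exceeded the germ cells at the later stages, with 147 CPM (113 to 189) at E13.5 and 136 CPM (100.2 to 180.1) at E14.5, from 61 and 48 UMIs in 31 and 30 cells. Gata2 lay in interstitial cells between 5.65 and 8.91 CPM, and in supporting cells it was between 0.520 and 1.33 CPM.

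Msx1 changed most among the targets. The gene (chr5:37820491-37824585) encodes a homeobox repressor, long known as a BMP target. It was 5.30 CPM (3.75 to 7.27) at E11.5, 10.4 CPM (8.90 to 12.01) at E12.5, 32.1 CPM (29.5 to 34.8) at E13.5 and 87.2 CPM (84.3 to 90.3) at E14.5 in germ cells. No 2 of these intervals overlapped. The log2 ratio of E14.5 over E11.5 was 4.04 (3.58 to 4.54). Msx1 was the only target to pass the 2-fold rule between E12.5 and E13.5 (log2 ratio 1.63, 1.39 to 1.88), where 5.8% of genes passed upward. It was also the only target to pass between E13.5 and E14.5 (log2 ratio 1.44, 1.32 to 1.57), where 14.2% of genes did.

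Msx1 was also high in supporting cells, but with the reverse course: 238, 131, 107 and 79.8 CPM. In germ cells without a single UMI of the 5 supporting markers, an alternative added after the data were seen, its log2 ratio of E14.5 over E11.5 was 3.82. All 4 targets passed the rule in those cells too, and the share of all genes there is not given here. A cell can lack these UMIs and still hold stray RNA, whose part in Msx1 was not tested. Detection of Msx1 in thinned germ cells went from 3.14% and 4.88% to 15.3% and 33.6%.

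Msx2, the paralog of Msx1, did not follow it. The gene (chr13:53466881-53472780) was read at 42.1 CPM (37.5 to 47.1), 45.2 CPM, 51.3 CPM and 46.5 CPM (44.3 to 48.7) in germ cells, with a log2 ratio of 0.14 (-0.03 to 0.32) between the ends. It was -0.19 on the median-of-ratios scale. Germ cells nonetheless held more Msx2 than any somatic class, with 10.1 to 13.49 CPM in the epithelium, 5.66 to 9.07 CPM in supporting cells and 1.34 to 1.99 CPM in interstitial cells.

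The Id genes encode inhibitors of basic helix-loop-helix factors. Id1 (chr2:152736251-152737410) rose in germ cells step by step, from 69.7 CPM (63.7 to 76.1) over 94.6 and 118 CPM to 188 CPM (184 to 193). No step on its own passed the 2-fold rule. The log2 ratio between the ends was 1.43 (1.30 to 1.57). Id2 (chr12:25093799-25096092) went from 46.3 CPM (41.4 to 51.6) over 50.04 and 69.1 CPM to 82.1 CPM (79.2 to 85.1). Its log2 ratio of 0.83 (0.66 to 0.99) stayed under 2-fold. Id3 (chr4:136143822-136145392) was nearly level at 331, 333, 299 and 360 CPM, and its log2 ratio of 0.12 turned to -0.21 on the median-of-ratios scale. Erythroid cells held Id1 at 4.78 to 30.8 CPM, the highest from 16 UMIs in 17 cells at E12.5, and Id3 at 10.9 to 48.1 CPM. The part of stray RNA in these values was not tested.

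**Figure D2:**
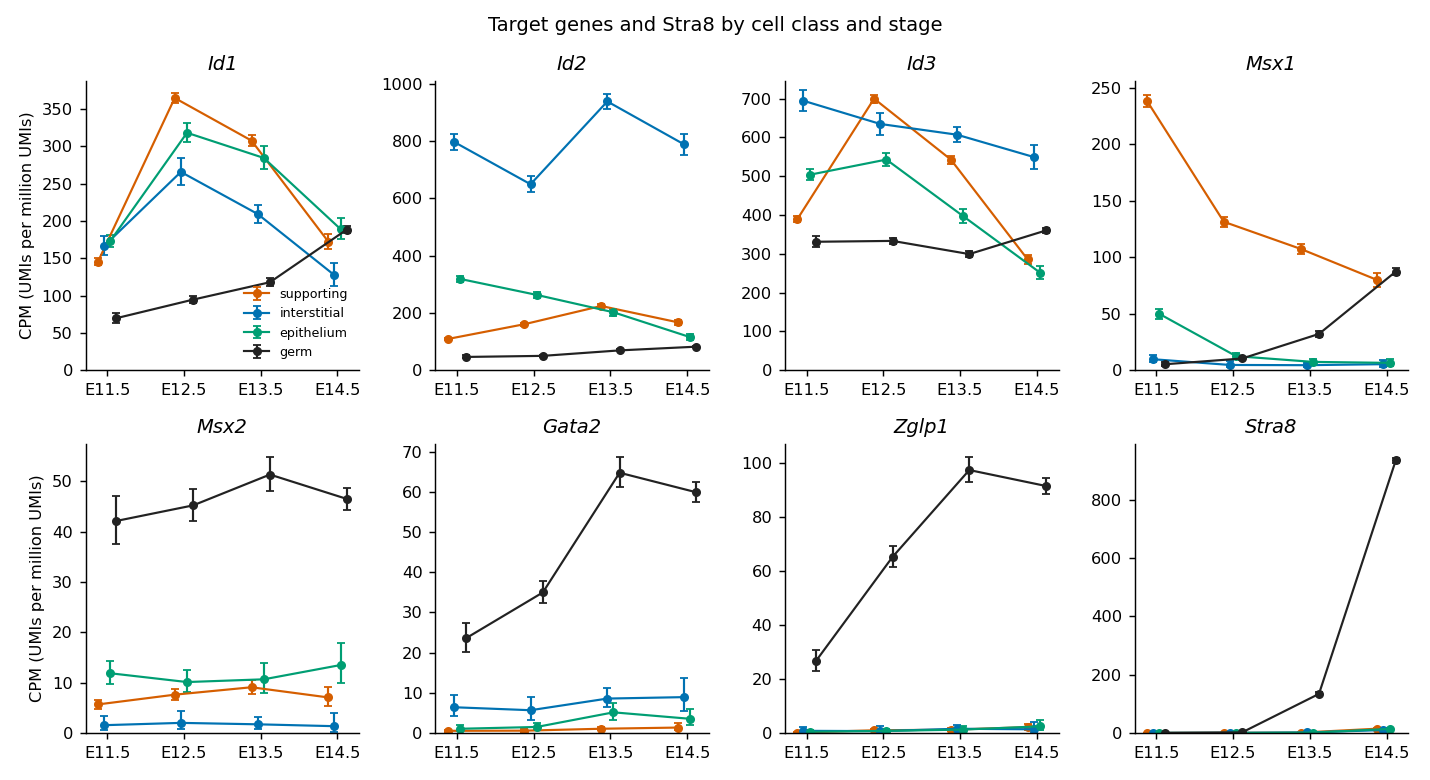
Level of the 7 targets and of Stra8 (CPM, linear axes that differ between panels) by stage in 4 cell classes; points are sums over the cells of 1 library and bars are exact Poisson 95% intervals. Zglp1 and Gata2 rise in germ cells up to E13.5, Msx1 rises in germ cells to 87.2 CPM while it falls in supporting cells, and Id2 is highest in interstitial cells.

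**Figure D3:**
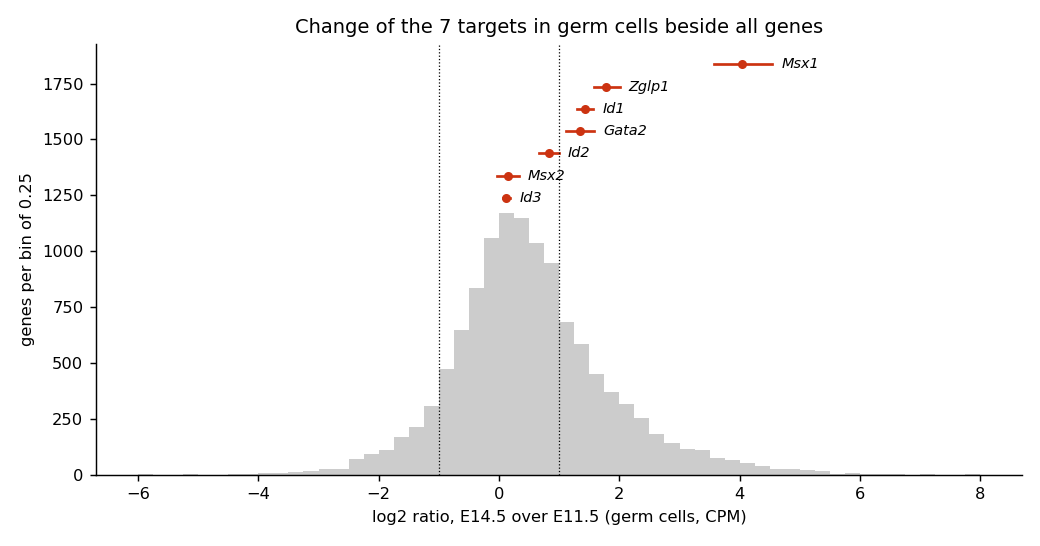
Log2 ratio of E14.5 over E11.5 in germ cells for the 7 targets (red points with 95% intervals, at arbitrary heights) above the histogram of all genes that rest on at least 50 UMIs (grey, genes per bin); dotted lines mark 2-fold. Msx1, Zglp1, Id1 and Gata2 lie beyond the upper line, and Id2, Msx2 and Id3 between the lines.

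The number of the 7 targets detected per germ cell was higher on average at later stages. In germ cells thinned to 5000 UMIs the mean number of targets with a UMI was 1.63, 2.06, 2.50 and 2.76 in stage order. Cells with at least 4 of the 7 made up 4.93%, 11.1%, 19.8% and 30.3%. Cells with none of them made up 8.07%, 6.90%, 3.37% and 6.58%. Since every cell was thinned to the same number of UMIs, depth per cell did not differ between the stages here. The mean is the sum of the shares of cells with each target. Whether targets met in a cell more often than these shares give was not tested, and other genes were not counted this way.

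Stra8 itself was 0 UMIs in germ cells at E11.5, and 1.98 CPM at E12.5, 134 CPM at E13.5 and 936 CPM at E14.5. Zglp1 and Gata2 had thus reached 65.1 and 35.0 CPM at E12.5, when 588 of 594 germ cells had no Stra8 UMI after thinning. In the germ cells with no thinned Stra8 UMI, Zglp1 was 26.5, 64.1, 90.1 and 109 CPM over the 4 stages. Gata2 was 23.6, 34.8, 58.4 and 57.5 CPM in them. Msx1 was 5.30, 10.0, 19.6 and 40.0 CPM in the same cells. These cells are not free of Stra8: with all their UMIs counted they held it at 0, 1.00, 27.4 and 125 CPM.

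Germ cells of a library were split by Stra8 in each cell, thinned to 5000 UMIs, into cells with 0, with 1 to 3 and with 4 or more Stra8 UMIs. At E14.5 these bins held 262, 668 and 1334 cells. Msx1 was 40.0 CPM (34.9 to 45.7), 69.7 CPM and 111 CPM (106 to 116) in the 3 bins. It was the only target to pass the 2-fold rule between the outer bins (log2 ratio 1.47, 1.27 to 1.68), as did 13% of genes upward. Id1 came close, with 124, 148 and 231 CPM and a log2 ratio of 0.90 (0.78 to 1.01). With germ cells defined by at least 2 markers it was 1.06, and 2 targets then passed.

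Id3 was highest in the top bin, at 291, 266 and 437 CPM (log2 ratio 0.59, 0.51 to 0.66), under 2-fold. Id2 was 68.2, 78.6 and 88.1 CPM. Msx2 (44.0, 50.2 and 44.9 CPM) and Gata2 (57.5, 67.1 and 56.1 CPM) had log2 ratios of 0.03 and -0.03, whose intervals included 0. Zglp1 ran the other way, at 109 CPM (100.1 to 118), 97.0 CPM and 83.1 CPM (79.1 to 87.2), a log2 ratio of -0.39 (-0.52 to -0.25). At E14.5 the targets thus did not share a course over Stra8. The median log2 ratio was 0.37 over the targets and 0.15 over all genes.

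At E13.5 the bins held 480, 184 and 49 cells, so the top bin is thin. It lies below the minimum of 50 cells that was asked of a class in comparisons of stages. Msx1 was 19.6, 56.2 and 87.0 CPM (log2 ratio 2.15, 1.79 to 2.51) and was again the only target to pass the 2-fold rule, as did 7.04% of genes upward. Gata2 was 58.4, 76.3 and 95.7 CPM (log2 ratio 0.71, 0.40 to 1.02). Id1 was 111, 128 and 164 CPM (log2 ratio 0.57, 0.33 to 0.80). Zglp1 was 90.1, 118 and 97.7 CPM, with an interval of the outer ratio that included 0. Id2 was 62.3, 86.4 and 81.1 CPM, Id3 304, 274 and 343 CPM, and Msx2 51.0, 49.3 and 63.5 CPM. Whether the ratios of E13.5 and E14.5 differ was not tested.

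Other genes of meiotic cells moved along the same bins. At E14.5 Sycp3, which encodes a protein of the synaptonemal complex, was 92.4, 234 and 475 CPM. Pou5f1, a pluripotency gene, was 304, 210 and 127 CPM. Bmp2 was 2.73, 2.63 and 5.84 CPM in the germ cell bins, the top one from 116 UMIs. All bins of a stage come from 1 library. Median depth per cell fell over the bins, from 19774 over 16901 to 14252 UMIs at E14.5 and from 25781 over 22428 to 19985 UMIs at E13.5. The part of depth in these differences was not tested.

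**Figure D4:**
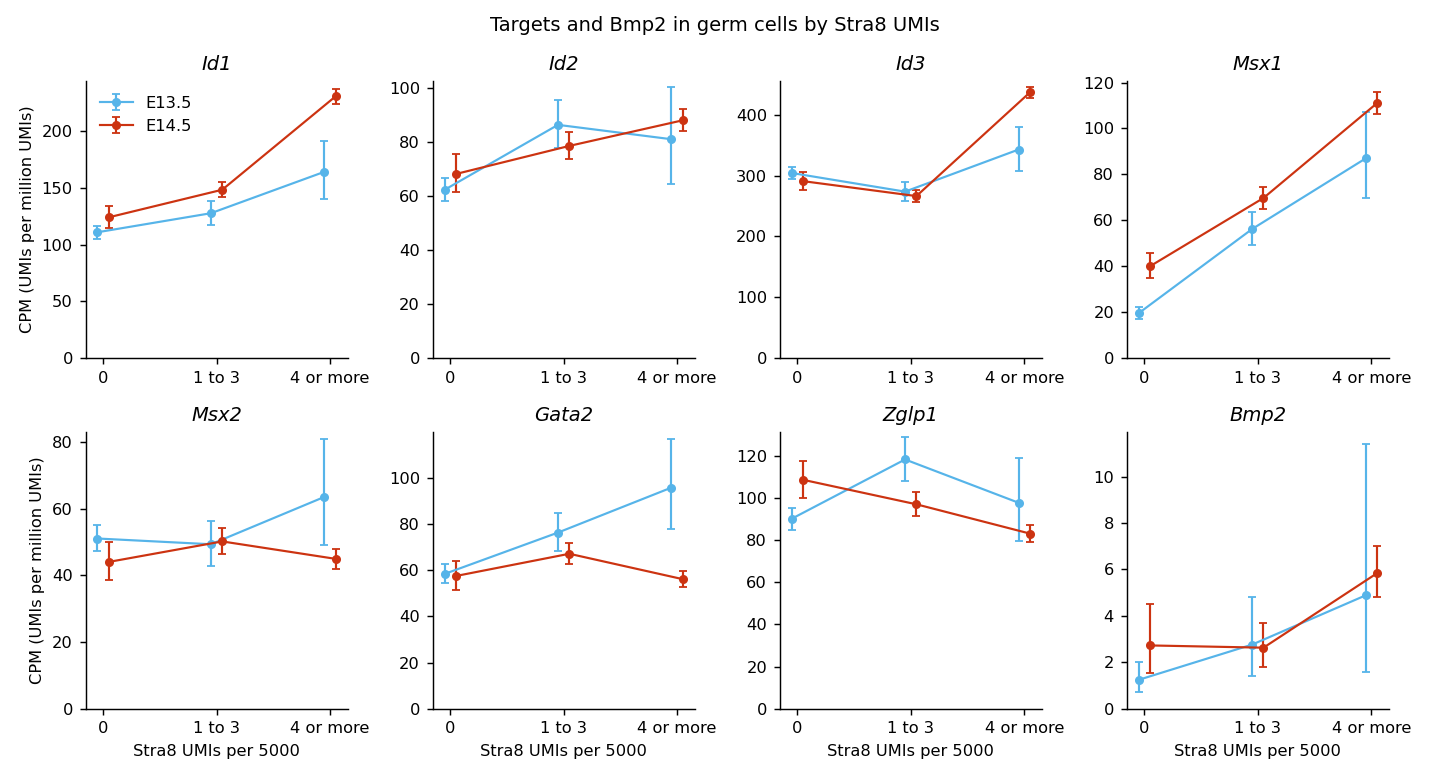
Level of the 7 targets and Bmp2 (CPM, linear axes that differ between panels) in germ cells with 0, 1 to 3 and 4 or more Stra8 UMIs per 5000, at E13.5 (blue) and E14.5 (red); bars are exact Poisson 95% intervals. Msx1 climbs over the bins at both stages, Id1 and Id3 are highest in the top bin at E14.5, and Zglp1 declines from 109 to 83.1 CPM at E14.5.

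The targets were also read in the somatic classes, where the Id genes and Msx1 were abundant. Id1 in supporting cells was 145 CPM (141 to 150), 365 CPM (358 to 372), 308 CPM (300 to 315) and 172 CPM (163 to 182). The step to E12.5 passed the 2-fold rule (log2 ratio 1.33, 1.28 to 1.38), as did 5.02% of genes upward, and E14.5 was near the start again. Id1 had its highest level at E12.5 in interstitial cells (266 CPM) and in the epithelium (318 CPM) as well. Id3 in supporting cells went 389, 700, 543 and 285 CPM, also with the peak at E12.5. Bmp2 in supporting cells stood at 85.4 CPM at E14.5, with an interval that overlapped that of E12.5. Whether its course is linked to those of Id1 and Id3 was not tested.

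Id2 had its highest levels in the interstitial cells. It was 797, 649, 938 and 788 CPM there and 109, 160, 224 and 167 CPM in supporting cells, a log2 ratio of supporting over interstitial cells between -2.87 and -2.02. In the epithelium Id2 fell from 319 over 263 and 202 to 115 CPM, a log2 change of -1.47 (-1.62 to -1.32). Id3 in the epithelium went from 504 to 252 CPM (log2 change -1.001, -1.10 to -0.90) and Msx1 from 49.9 over 12.4 and 7.37 to 6.47 CPM (log2 change -2.95, -3.60 to -2.36). These 3 of the 7 targets passed the 2-fold rule downward in the epithelium, as did 2.72% of all genes. Id3 did so at the limit of the rule, and its log2 change was -0.94 with cells of more than 1 class kept. Id1 did not follow them, with 173 and 189 CPM at the ends. The supporting markers rose in the epithelium class, as given above. The part of the cell mixture in these falls was not tested.

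In supporting cells 4.85% of all genes passed the rule downward from E11.5 to E14.5 and 10% upward. Msx1 was the only target to pass it there, with a fall of 1.58 on the log2 scale (interval -1.70 to -1.46). Against interstitial cells, where it lay between 4.44 and 9.71 CPM, its log2 ratio was between 3.90 and 4.82. In supporting cells Gata2 rested on 10 to 21 UMIs per library and Zglp1 on 4 to 26. Zglp1 went from 0.130 to 2.13 CPM there over the 4 stages, and Dazl, a germ cell gene, from 0.748 to 15.8 CPM in the same cells. The part of stray germ cell RNA in these values was not tested.

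The other genes of the pathway were taken from lists by role. Of 12 receptors and co-receptors in the table, 5 reached 20 CPM in a class. In germ cells 9 of the 12 rested on enough UMIs, and 3 of them passed the 2-fold rule upward from E11.5 to E14.5 and none downward. The shares of all genes in this comparison, 30.1% upward and 8.85% downward, apply to each pathway list here, and the upward count of receptors is close to that share. Among these, Bmpr1a, the type I receptor, went 17.0, 20.9, 32.9 and 43.5 CPM. Bmpr2, the type II receptor, went 3.63, 5.18, 5.55 and 14.52 CPM. The median log2 ratio over the receptors was 0.33, below that over all genes. In supporting cells Bmpr1a lay between 26.0 and 43.5 CPM, and Amhr2, the receptor of anti-Müllerian hormone, between 236 and 369 CPM.

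Of the 4 SMAD genes of the pathway, 2 passed upward in germ cells, against 30.1% of all genes. Smad5 went 11.4, 15.2, 21.6 and 29.7 CPM in them. The other was Smad9, which rests on 1 UMI at E11.5 and 83 UMIs at E14.5. Smad1 (8.23 to 10.1 CPM between the ends) and Smad4 (22.3 and 23.8 CPM) did not pass. All classes held Smad5, with the highest levels in interstitial cells (65.7 to 112 CPM).

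Of 15 antagonists in the table, 6 rested on enough UMIs in germ cells, of which 2 passed upward and 1 downward, against 30.1% and 8.85% of all genes. The one that fell was Fstl1, from 28.6 to 9.81 CPM. Fst, which encodes follistatin, lay between 249 and 380 CPM in supporting cells, but it is a gene of the supporting rule, so its place there is set by the rule. Nbl1 lay between 57.0 and 89.5 CPM in interstitial cells.

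Of 10 further targets, 8 rested on enough UMIs in germ cells, of which 3 passed upward and 1 downward, which is near the 30.1% and 8.85% of all genes. The one that fell was Hey1, a repressor also driven by NOTCH, from 43.2 over 32.9 and 19.0 to 4.56 CPM. The inhibitory Smad7 was 31.7, 28.0, 30.01 and 24.4 CPM, and the pseudoreceptor Bambi 19.9, 16.8, 21.6 and 19.3 CPM in germ cells, neither past 2-fold. The median log2 ratio over these further targets was 0.39, near that over all genes. Of 10 other ligands in the table, Gdf10 alone reached 20 CPM, in interstitial cells (16.6, 6.97, 23.8 and 38.7 CPM). Bmp7, named after its values were seen, stayed just under that limit in supporting cells, at 19.2, 18.2, 16.4 and 19.3 CPM, below Bmp2 but above Bmp4 and Bmp5 in these cells. In germ cells Bmp7 was 13.2, 9.50, 12.8 and 9.06 CPM, above Bmp2, Bmp4 and Bmp5 there. Its log2 ratio between the ends did not pass the 2-fold rule. Bmp6, Bmp10, Gdf2, Gdf7 and Cer1 were not analysed here.

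**Figure D5:**
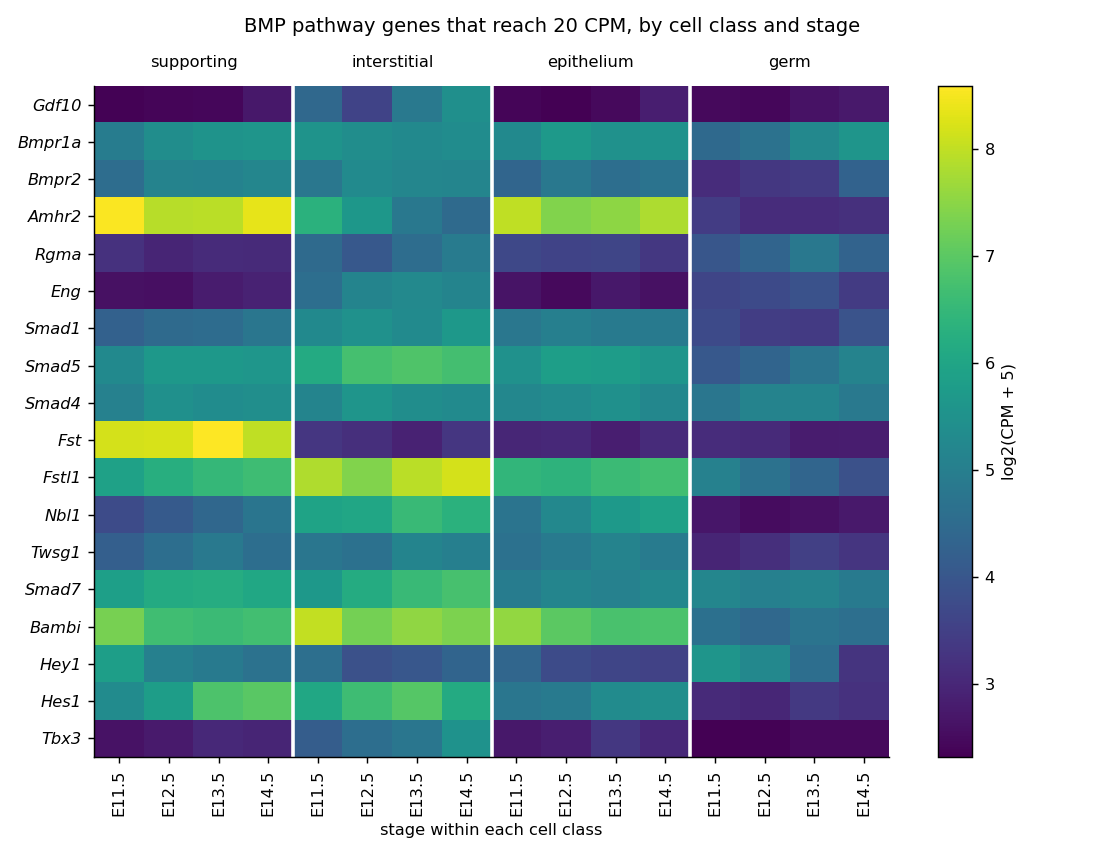
Level of the 18 pathway genes outside the 10 members that reach 20 CPM in a class, as log2(CPM + 5) on a colour scale, by stage within 4 cell classes. Amhr2 and Fst stand out in supporting cells, Fstl1 and Bambi in interstitial cells, and in germ cells Bmpr1a and Smad5 brighten with stage while Hey1 and Fstl1 darken.

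For each member the genes with the most similar profile of log2(CPM + 5) were sought over 19 combinations of class and stage, among 7591 genes. The correlations are descriptions, since classes of a library share depth and stray RNA. The profile of Zglp1 was most like those of Ddx4 (Pearson r = 0.994), Usp26 (0.994) and Piwil2 (0.993); Ddx4 is a gene of the germ cell rule. Msx2 was nearest to Prkcz (0.984), Hook1 (0.965) and Epcam (0.964). Bmp2 was nearest to Arhgap17 (0.948), Kitl (0.944) and Ppm1l (0.941). Id2 was nearest to Ghr (0.961), Lbh (0.956) and Efna5 (0.952).

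Gata2 was nearest to Crlf2 (0.940), Upf1 (0.932) and Sgf29 (0.927), and Bmp4 to Hsd17b12 (0.909), Srprb (0.878) and Adprh (0.862). The best matches of the other members were weaker, with Zfp692 (0.905) for Msx1, Strn3 (0.838) for Id1 and Gpat4 (0.832) for Id3. Bmp5 did not reach 20 CPM in any combination, and its nearest gene was Cldn11 (0.878).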

How the data were processed

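The deposited table held natural log values that the authors made as ln(1 + UMIs of a gene per 10000 UMIs of the cell). The values themselves show it: back-transformed they sum to 10000 in each cell, and 100% of the 69792436 values above 0 are whole multiples of the cell's smallest value (relative tolerance 1e-04). This gave back the UMI counts of all 19387 cells, which every step used, since the plan was written for counts. Cell Ranger 2.2.0 and the build mm10 are named in the submitters' processing notes; cell calling, filters and the counting options are not given in the sources used here.

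Cells with more than 20% mitochondrial UMIs (3, 1, 1 and 0 by stage) were dropped. A doublet score in the manner of Scrublet, written anew and run per library (2 simulated doublets per cell, assumed rate 0.06, 2000 variable genes, 30 principal components), called 106, 105, 78 and 92 cells, which were removed. Of 19001 cells kept, 14465 fell in 1 class, 2942 met no rule and 1594 met more than 1. The median cell had between 11361 and 14258 UMIs in the libraries.

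UMIs were summed over a class and library as CPM. Intervals are exact Poisson for levels, Clopper-Pearson for shares and, for log2 ratios, exact binomial on how the UMIs divide between the sums, at 95%. They cover counting error only, because cells of a library are not replicates. Beside a count of 0 stands the share that 3 counts would give. The 2-fold rule was tried on simulated Poisson counts with 200 genes changed 4-fold, all with expected UMIs above the minimum of the rule. In germ cells, E14.5 against E11.5, 100% were found and 42 unchanged genes were called, with 12102 genes tested. In supporting cells, E12.5 against E11.5, 100% were found and 7 unchanged genes were called, with 12600 tested. The simulation held counting error only, as the intervals do. It cannot show how the rule fares with differences between libraries, embryos or cells.

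The 10 members and the pathway lists were chosen with earlier results of these data known. The rule for named genes takes all members, pathway genes that reach 20 CPM in a class, meiosis genes beside the targets, and the 3 genes most like each member. Alternatives tried were other class rules, doublets kept, a common UMI minimum, equal weight per cell, another scale, other limits of the rule and other thinning. Python 3.11.15, numpy 2.4.6, scipy 1.17.1, pandas 2.3.3, scikit-learn 1.9.0 and matplotlib 3.10.9 were used.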

Additional observations from a re-analysis of the deposited data

Results flagged for a closer look

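Msx1 moved in opposite directions in different cell classes of the same libraries. Between the first stage and the last its log2 ratio was 4.04 in germ cells, -1.58 in supporting cells and -2.95 in the epithelium. It was picked out because the classes changed in opposite directions; with 1 library per stage the difference was not tested.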

How the results depend on the processing

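With 1 library per stage no library could be left out. No paired analysis was possible because each stage is 1 library and no replicate numbers exist. Of 849 recomputed values, 712 moved by less than their interval or stayed within 1.5 times the main count, 131 moved by more and 6 changed sign from a reported value whose interval left out 0. Another 24 of these values differed in sign from a reported value whose interval included 0, among them Msx2 in germ cells, E14.5 against E11.5 (0.14 as reported, -0.19 on the median-of-ratios scale).

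Of the 6, sign changed for Bmp2 in interstitial cells, E14.5 against E11.5, to 0.063 with cells of more than 1 class kept and 0.21 with rules on thinned cells. It changed for Gata2 in the epithelium, to -0.014 with rules on thinned cells. Id3 in germ cells went to -0.21 on the median-of-ratios scale, and Id3 over the Stra8 bins at E13.5 to -0.067 with unthinned bins and -0.061 with thinning to 2000 UMIs. Which cells enter a class differs between these rules, and the cause was not tested.

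The log2 ratio of Bmp2 in supporting against interstitial cells went to 2.62, 2.77 and 2.65 at E12.5, E13.5 and E14.5 with cells of more than 1 class kept. It went to 3.15 at E11.5 and 3.59 at E14.5 with rules on thinned cells, and to 3.81 at E14.5 with at least 4 supporting markers. That of Bmp4 at E11.5 went to -3.06 with rules on thinned cells and -3.95 with at least 4 markers.

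The count of targets past the rule from E11.5 to E12.5 was 2 with a common minimum of 9791 UMIs or with at least 4 germ markers. With a ratio of at least 4 the counts were 0 for E12.5 against E11.5, E13.5 against E12.5 and E14.5 against E13.5, 1 for E14.5 against E11.5, and 0 for the Stra8 bins at E14.5. With at least 2 germ markers 2 targets passed over those bins.

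Counts over all genes moved by construction with the limits. With a ratio of at least 4 they were 18, 73, 453 and 1902 in germ cells (E12.5 against E11.5, E13.5 against E12.5, E14.5 against E13.5, E14.5 against E11.5; 467, 768, 2304 and 4713 as reported), 201 and 519 in supporting cells (E12.5 and E14.5 against E11.5; 1064 and 1800), 32 in interstitial cells (E12.5 against E11.5; 424), 192 in the epithelium (E14.5 against E11.5; 902), and 163 and 393 over the Stra8 bins at E13.5 and E14.5 (1044 and 2075). With at least 20 CPM, in the same order, they were 119, 78, 624, 1788, 260, 569, 249, 401, 512 and 806. Without a minimum of UMIs they were 783 and 1435 for the first 2 germ cell comparisons, 1663 and 2784 in supporting cells, 858 in interstitial cells, 1763 in the epithelium, and 1599 over the Stra8 bins at E13.5.

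On the median-of-ratios scale the share of higher calls went from 82.7% to 70.9% and from 76.4% to 61.9% in the later germ cell steps, from 67.4% to 54.1% in supporting cells (E14.5 against E11.5) and from 47.4% to 62.0% in interstitial cells (E12.5 against E11.5). Shares of cells follow depth. For Zglp1 in germ cells they were 5.38%, 10.4%, 15.6% and 15.9% at 2000 UMIs and 51.6%, 73.6%, 84.6% and 69.5% without thinning. For Bmp2 in supporting cells they were 9.71%, 15.3%, 10.4% and 14.2%, and 39.9%, 48.3%, 37.1% and 46.6%.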
